A study of Mus musculus with 8 samples.

Results

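The 44 genes that code for collagen chains were read in the RNAseq counts of 8 libraries from mG+ (GFP+) cells of EC-*Tert*-KO and WT mice. They are the protein-coding genes whose symbol is *Col*, a number, the letter a and a number, 44 of the 54532 genes listed. By the known build of the protein, 11 are chains of fibrillar collagens, 8 are chains of basement membrane collagens and 25 belong to other types. All mice were aged 8 months, and all carried *Tie2e-cre* and the *mTmG* reporter. Mice labelled KO had the genotype TERTfl/fl and mice labelled WT had TERT+/+. The 8 libraries form 4 pairs of 1 KO and 1 WT library each: subcutaneous adipose tissue (SAT) of mice on high fat diet (HFD), and SAT, visceral adipose tissue (VAT) and skeletal muscle of mice on chow. The study took inguinal fat as SAT and gonadal fat as VAT. The *Tie2e* promoter drives Cre in these mice, and GFP marks cells in which Cre acted at any time, as well as their progeny. The sources do not state how many mice gave cells to each library.

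Collagens are the main structural proteins of connective tissue. A collagen molecule is a triple helix of 3 chains, which may come from 1 gene or from several. Fibrillar collagens such as types I and III assemble into the fibrils of the interstitial matrix and are known as products of fibroblasts, while type IV collagen forms the network of the basement membrane, which endothelial cells, pericytes and adipocytes all contact. In a type IV molecule of the common form, the chains of *Col4a1* and *Col4a2* join, and these 2 genes lie head to head and share a promoter region. Type VI collagen forms beaded filaments next to basement membranes, and the FACIT collagens (fibril-associated, with interrupted triple helices) bind to the surface of fibrils.

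The arrangement of *Col4a1* and *Col4a2* bears on the counts. On chromosome 8 (GRCm38), *Col4a1* occupies 11198423 to 11312826 on the minus strand and *Col4a2* occupies 11312805 to 11449287 on the plus strand, so that the genes overlap by 22 bases. Reads from these bases cannot be assigned to 1 of the genes unless strand was used in counting, which is not stated. The overlap, read from the RefSeq promoter sequences (GRCm38.p6), is shown for this reason.
Start overlap (chr8:11312805-11312826, plus strand): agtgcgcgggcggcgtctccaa

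Of the 44 genes, 35 matched an entry in the RefSeq promoter table (GRCm38.p6), with 38 start sites. The sequences of *Col1a1*, *Col2a1*, *Col4a3*, *Col5a2*, *Col9a3*, *Col12a1*, *Col14a1*, *Col22a1* and *Col26a1* were not used here. The 250 bases before the start are shown for 5 genes whose RefSeq start is that of the count table and whose window lies in no other gene. *Col3a1*, *Col6a2*, *Col6a3* and *Col5a3* had a KO to WT ratio above 1 in all 4 pairs, and *Col8a1* had no count in HFD SAT. Capitals mark, on either strand, 1 of 3 promoter motifs, which do not overlap each other. The letters searched were TATAAA for the motif known as the TATA box, CCAAT for the box of that name and, for the GC box, GGGCGG.
*Col3a1* (chr1:45311288-45311537, plus strand): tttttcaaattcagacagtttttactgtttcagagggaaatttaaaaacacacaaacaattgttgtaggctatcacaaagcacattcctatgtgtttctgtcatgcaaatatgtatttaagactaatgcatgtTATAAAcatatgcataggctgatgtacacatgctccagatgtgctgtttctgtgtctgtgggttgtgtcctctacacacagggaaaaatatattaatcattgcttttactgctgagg
*Col6a2* (chr10:76623631-76623880, minus strand): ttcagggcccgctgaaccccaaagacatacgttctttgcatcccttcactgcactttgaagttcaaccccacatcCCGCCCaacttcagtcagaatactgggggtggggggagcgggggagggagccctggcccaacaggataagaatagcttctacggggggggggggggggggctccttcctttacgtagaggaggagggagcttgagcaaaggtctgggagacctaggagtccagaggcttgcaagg
*Col6a3* (chr1:90843972-90844221, minus strand): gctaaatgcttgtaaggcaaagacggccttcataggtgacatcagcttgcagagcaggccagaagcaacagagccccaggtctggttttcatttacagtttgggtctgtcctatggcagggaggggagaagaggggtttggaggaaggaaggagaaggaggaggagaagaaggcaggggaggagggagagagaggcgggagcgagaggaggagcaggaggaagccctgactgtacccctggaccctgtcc
*Col5a3* (chr9:20815068-20815317, minus strand): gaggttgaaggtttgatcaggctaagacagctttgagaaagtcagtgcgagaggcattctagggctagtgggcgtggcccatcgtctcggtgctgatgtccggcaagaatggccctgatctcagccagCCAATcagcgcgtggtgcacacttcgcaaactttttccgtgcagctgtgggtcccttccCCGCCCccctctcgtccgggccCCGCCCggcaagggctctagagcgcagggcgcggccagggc
*Col8a1* (chr16:57754738-57754987, minus strand): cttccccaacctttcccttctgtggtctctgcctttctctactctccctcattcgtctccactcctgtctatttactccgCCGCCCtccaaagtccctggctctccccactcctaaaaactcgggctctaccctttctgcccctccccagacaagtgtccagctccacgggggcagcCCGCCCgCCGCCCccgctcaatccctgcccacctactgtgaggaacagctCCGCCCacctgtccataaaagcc

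The window of *Col3a1* holds 1 TATA box, at position -117 from the start, and is 35.2% G and C. The 4 others are 57.2% to 62.8% G and C. *Col8a1* holds 4 GC boxes, *Col5a3* holds 2 GC boxes and 1 CCAAT box, *Col6a2* holds 1 GC box, and none of the 3 motifs is in the window of *Col6a3*. Over the 38 member promoters, 22 (57.9%) held a GC box, against 32.7% of the 32851 promoters in the table. A CCAAT box was in 13 (34.2%, against 33.8%) and a TATA box in 5 (13.2%, against 12.4%). A match describes the letters and is not evidence of binding.

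Library totals ran from 6214269 to 18855772 counts. *Tert* had 114 counts in WT and 0 in KO in HFD SAT, 70 and 11 in chow SAT, and 24 and 7 in muscle. The VAT libraries went against the label, with 3 counts in the one labelled WT and 9 in the one labelled KO, so that each direction given for VAT is that of the library labelled KO. All 10 endothelial markers (*Pecam1*, *Cdh5*, *Kdr* and others) had counts in all 8 libraries. Their sum was 262 to 323 CPM (counts scaled to a common library size by TMM) in HFD SAT, 488 to 595 in chow SAT and 1413 to 1938 in VAT and muscle. Markers of other cells were also present: 10 fibroblast and fibro-adipogenic progenitor markers summed to 801 to 2537 CPM, 10 pericyte and smooth muscle markers to 76.2 to 774, and 10 leukocyte markers to 6030.0 to 16920. As each pair holds 1 library of each genotype, differences within a pair describe those 2 libraries and carry a 95% counting interval and no p-value. In such bulk samples, fewer cells of a type and less RNA per cell cannot be told apart.

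The 44 collagen genes together had 731 to 4255 CPM in the sorted cells, and their make-up differed between SAT and the other 2 tissues. Fibrillar chains took 64.2% to 68.2% of all collagen counts in the 4 SAT libraries and 37.2% to 45.6% in the 4 libraries of VAT and muscle. Type IV chains took 9.48% to 10.9% in SAT and 22.7% to 41.3% in VAT and muscle. The ratio of type IV to fibrillar counts was therefore 0.139 to 0.168 in SAT, 0.889 and 0.498 in the VAT libraries labelled WT and KO, and 1.11 and 0.721 in muscle. On this ratio the 4 SAT libraries did not overlap with the 4 others, on either diet or genotype. In VAT and in muscle the ratio was lower in the library labelled KO, while the paired values in SAT lay close together, at 0.168 and 0.139 on HFD and 0.157 and 0.156 on chow.

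**Figure D1:**
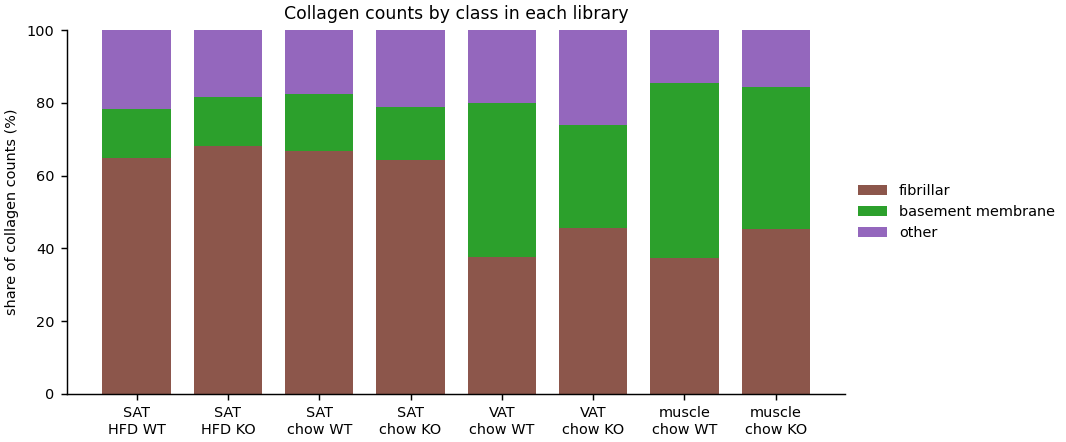
Share of all collagen counts (y axis, %) taken by fibrillar, basement membrane and other collagen genes in each of the 8 libraries (x axis). Fibrillar chains take 64.2% to 68.2% in the 4 SAT libraries and 37.2% to 45.6% in VAT and muscle.

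The summed level of the 11 fibrillar genes was 1348 CPM in WT and 1548 in KO in HFD SAT, 489 and 2732 in chow SAT, 627 and 1732 in VAT as labelled, and 493 and 1003 in muscle. KO was 1.15-fold, 5.59-fold, 2.76-fold and 2.04-fold higher in that order. The 8 basement membrane genes summed to 282 and 302 CPM in HFD SAT, 115 and 621 in chow SAT, 705 and 1068 in VAT as labelled, and 639 and 863 in muscle. For the 25 other genes the sums were 452 and 421 CPM, 128 and 902, 334 and 994, and 193 and 346. The largest step in each class was in chow SAT, where the WT library was the lowest of all 8 in every class. In HFD SAT the 2 libraries differed by at most 1.15-fold in each class, with the other collagens lower in KO.

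**Figure D2:**
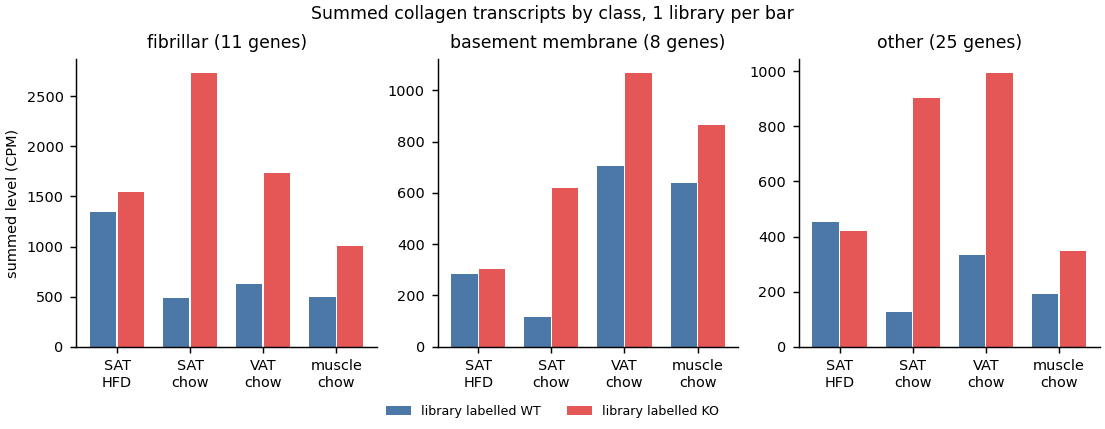
Summed level (y axis, CPM) of the fibrillar, basement membrane and other collagen genes in the 4 pairs (x axis), with 1 bar per library. KO bars stand above WT bars in the 3 chow pairs in every class, and the WT bar of chow SAT is the lowest in each panel.

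Type I and type III collagen carried most of the fibrillar counts. *Col3a1* (ENSMUSG00000026043, chromosome 1, 45311538 to 45349706) codes for the only chain of type III collagen. Its level was 413 CPM in WT and 586 in KO in HFD SAT, 187 and 901 in chow SAT, 264 and 696 in VAT as labelled, and 145 and 281 in muscle. KO was higher in each pair, with log2 differences of 0.50 (0.44 to 0.57), 2.27 (2.21 to 2.33), 1.40 (1.33 to 1.46) and 0.96 (0.88 to 1.03). For *Col1a1* (chromosome 11, 94936224 to 94953042), which codes for the major chain of type I collagen, the levels were 329.5 and 393 CPM in HFD SAT, 99.6 and 680.1 in chow SAT, 101 and 347 in VAT, and 110.0 and 268 in muscle. Its log2 differences were 0.25 (0.18 to 0.32), 2.77 (2.70 to 2.85), 1.79 (1.68 to 1.89) and 1.284 (1.202 to 1.366). *Col1a2* (chromosome 6, 4504814 to 4541544), the partner chain, had 419 and 377 CPM in HFD SAT, 146 and 774 in chow SAT, 119 and 358 in VAT, and 123 and 279.5 in muscle. It was lower in KO in HFD SAT, by a log2 difference of -0.15 (-0.22 to -0.08), and higher in the other 3 pairs.

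Type V chains, which regulate the width of type I fibrils, followed at lower levels. *Col5a1* had 75.5 and 41.6 CPM in HFD SAT, 12.7 and 141 in chow SAT, 39.4 and 142 in VAT as labelled, and 27.8 and 44.4 in muscle. It was lower in KO in HFD SAT (-0.86, -1.03 to -0.68) and higher in chow SAT (3.47, 3.27 to 3.69). The levels of *Col5a2* were 46.9 and 61.4 CPM, 16.1 and 107, 42.9 and 68.3, and 41.1 and 53.1 in the same order of pairs. *Col5a3* had 53.8 and 58.8, 8.60 and 83.5, 39.5 and 97.0, and 17.8 and 32.6 CPM. *Col5a2* was higher in the KO library in each pair, by 0.37 to 2.72 on the log2 scale. *Col5a3* was higher in the 3 chow pairs, by 0.87 to 3.27, and its interval spanned 0 in HFD SAT (0.13, -0.05 to 0.31).

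The other fibrillar genes were near or under 10 CPM in most libraries. *Col11a2*, best known from cartilage, had 2.75 and 14.4 CPM in HFD SAT, 13.2 and 19.6 in chow SAT, 9.10 and 8.48 in VAT as labelled, and 10.6 and 15.6 in muscle. For *Col27a1* the levels were 7.95 and 14.4, 4.95 and 24.3, 11.6 and 15.1, and 9.76 and 8.84 CPM. *Col2a1*, the chain of cartilage collagen, had 5.22 CPM in WT and 16.4 in KO in muscle, 0.496 in the KO library of chow SAT, and no count in the 5 other libraries. The 2 muscle libraries thus stood apart from the rest for *Col2a1*, and so they did for *Col11a1* (2.89 and 3.24 CPM, at most 0.495 elsewhere). The sum of 4 tendon markers was also highest in muscle, at 87.8 CPM in WT and 242 in KO. It was 2.39 to 18.5 in the other 6 libraries. *Thbs4* (68.25 and 125.4 CPM) and *Fmod* (16.57 and 111.5) gave most of the muscle sums, and *Tnmd* was highest there as well. *Scx* was not, at 1.90 and 1.03 CPM in muscle against 5.09 in KO of chow SAT. *Fmod* also stands in the list of fibril assembly genes below. The part of the tendon list in these collagen values was not tested. *Col24a1* reached at most 25 counts.

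**Figure D3:**
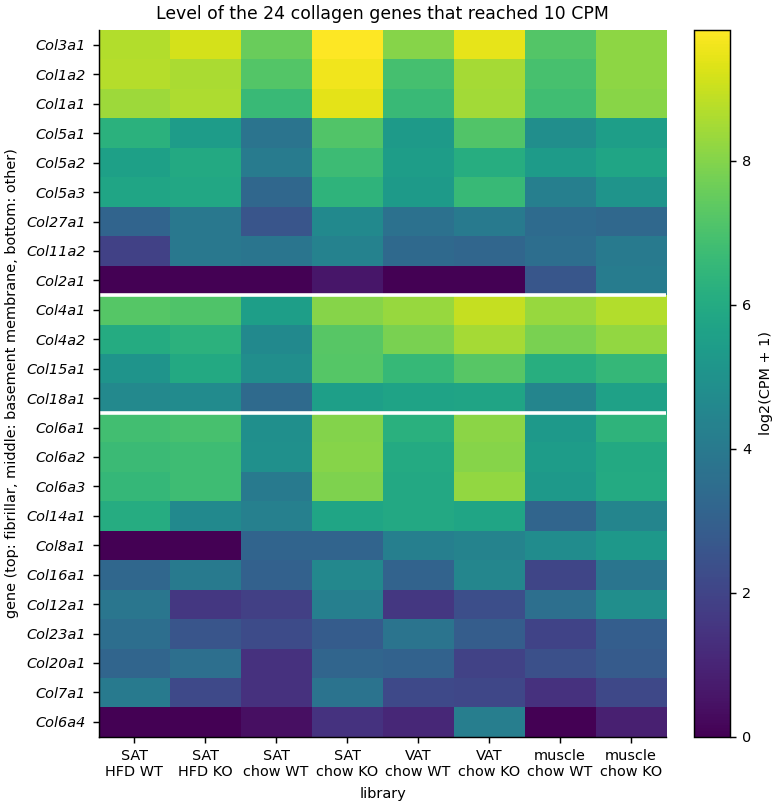
Level, as log2(CPM + 1), of the 24 collagen genes that reached 10 CPM in at least 1 library, in each of the 8 libraries (columns). *Col3a1*, *Col1a2* and *Col1a1* lead the fibrillar block (top), *Col4a1* and *Col4a2* the basement membrane block (middle), and *Col8a1* is at 0 in both SAT HFD libraries.

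Basement membrane collagen was carried by the paired genes *Col4a1* and *Col4a2*. *Col4a1* had 147.5 CPM in WT and 137 in KO in HFD SAT, 44.1 and 260.1 in chow SAT, 318 and 488.5 in VAT as labelled, and 315 and 414 in muscle. For *Col4a2* the levels were 64.9 and 78.4 CPM, 24.4 and 152, 229 and 357, and 227 and 298 in the same order. All 4 libraries of VAT and muscle lay above all 4 SAT libraries for both genes. The share of all genes that separate these libraries in the same way was not counted. The counting interval of the KO to WT difference lay above 0 for *Col4a2* in all 4 pairs, at 0.27, 2.64, 0.64 and 0.39, while that of *Col4a1* spanned 0 in HFD SAT (-0.11, -0.22 to 0.00).

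*Col15a1* and *Col18a1* code for collagens that sit at the outer face of basement membranes, and a fragment of type XVIII is the angiogenesis inhibitor endostatin. The levels of *Col15a1* were 32.7 and 61.3 CPM in HFD SAT, 28.1 and 150.1 in chow SAT, 95.7 and 153 in VAT as labelled, and 70.03 and 91.1 in muscle. *Col18a1* had 23.7 and 25.6, 9.53 and 45.9, 51.4 and 52.7, and 21.2 and 48.3 CPM. Its span holds 8825 bases of *Slc19a1* on the other strand, which had up to 425 counts, so its values are uncertain where strand was not used. The minor type IV chains *Col4a3* to *Col4a6*, which are known from kidney and other specialised basement membranes, reached 4.68, 5.21, 8.40 and 2.72 CPM at most. In HFD SAT, *Col4a3*, *Col4a4* and *Col4a5* had 27, 36 and 31 counts in WT and 0 in KO, at least 16.9-fold, 22.5-fold and 19.4-fold lower against a floor of 3 counts in the KO library.

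Such zeros were common among genes of this depth in HFD SAT. Of the 2899 genes with 20 to 50 counts in the WT library of that pair, 26.3% had 0 in KO, against 1.54% of such genes in VAT and 1.545% in muscle. Among the 44 collagen genes, 14 had no count in the WT library and 17 none in the KO library of HFD SAT, against 2 to 7 in the other 6 libraries.

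Of the remaining collagens, type VI was the most abundant. *Col6a1* (chromosome 10, 76708792 to 76726168) had 115 CPM in WT and 122 in KO in HFD SAT, 28.5 and 252 in chow SAT, 74.7 and 278 in VAT as labelled, and 38.1 and 81.5 in muscle. For *Col6a2*, its neighbour on chromosome 10 (76595762 to 76623630), the levels were 103 and 108, 29.2 and 258, 63.3 and 261, and 42.3 and 60.6 CPM. *Col6a3* (chromosome 1, 90765923 to 90843971) had 90.8 and 109, 15.0 and 239, 59.2 and 298, and 37.9 and 63.2 CPM. The intervals lay above 0 for all 3 chains in the 3 chow pairs, while in HFD SAT those of *Col6a1* (0.09, -0.04 to 0.21) and *Col6a2* (0.08, -0.05 to 0.21) spanned 0 and that of *Col6a3* did not (0.27, 0.13 to 0.41). The steps were 8.81-fold, 8.84-fold and 15.9-fold in chow SAT and 3.72-fold, 4.12-fold and 5.03-fold in the VAT library labelled KO. *Col6a4*, which codes for a chain related to that of *Col6a3*, had 0.309 and 1.74 CPM in chow SAT, 1.11 and 17.5 in VAT, 0 and 0.811 in muscle, and no count in HFD SAT. *Col6a6* reached 8.39 CPM in HFD SAT WT and *Col6a5* 2.70 in VAT.

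The FACIT genes were less uniform. *Col14a1*, found on type I fibrils, had 66.5 and 24.3 CPM in HFD SAT, 18.1 and 53.5 in chow SAT, 59.8 and 53.3 in VAT as labelled, and 8.10 and 21.1 in muscle. *Col16a1* had 8.82 and 15.1, 7.18 and 22.9, 7.77 and 21.5, and 3.13 and 13.2 CPM, higher in KO in each pair, by 0.78 (0.36 to 1.22), 1.67 (1.37 to 1.99), 1.46 (1.09 to 1.86) and 2.06 (1.62 to 2.55). *Col12a1*, a FACIT of tendon and fascia, had 13.3 and 2.01, 2.60 and 17.7, 1.998 and 4.09, and 10.9 and 27.9 CPM. Its direction in HFD SAT was thus opposite to that in chow SAT. *Col20a1* had 8.24 and 11.1, 1.67 and 8.19, 7.44 and 2.85, and 4.30 and 6.12 CPM. It shares 741 bases with *9230112E08Rik* on the same strand, which had up to 115 counts, so its values are uncertain.

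*Col8a1* codes for a short-chain collagen of vessel walls and of the layer under endothelia. It had no count in either SAT HFD library, 7.92 and 7.94 CPM in chow SAT (128 counts in each), 18.0 and 20.2 in VAT as labelled, and 26.0 and 37.1 in muscle. Its order was the same in WT and KO, with HFD SAT lowest, then chow SAT, VAT and muscle, and no 2 of these tissue and diet groups overlapped. The share of all genes with such a separate order was not counted. Of the 179 genes with 100 to 150 counts in both SAT chow libraries, 3 had 0 in both SAT HFD libraries. The transmembrane *Col23a1* had 10.7 and 4.94 CPM in HFD SAT, 3.77 and 6.26 in chow SAT, 12.6 and 6.50 in VAT, and 2.89 and 6.63 in muscle. *Col7a1*, the chain of the anchoring fibrils under skin epithelium, had 15.0 and 3.47, 1.61 and 12.3, 3.44 and 3.29, and 1.66 and 3.32 CPM. Of the 20 genes that stayed under 10 CPM throughout, *Col26a1* had no count in any library, and the highest count of the 19 others lay between 14 and 122.

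The shares of genes beyond 2-fold set the pairs apart. In chow SAT, 25 of 36 collagen genes that averaged 10 counts or more over both libraries had an interval wholly above 2-fold in KO, against 19.1% of all genes, and 0 lay below, against 11.5%. In VAT, 11 of 34 lay above 2-fold in the library labelled KO and 0 below, against 2.40% and 2.09% of all genes. In muscle, 8 of 38 lay above and 1 (*Col19a1*, 20 and 0 counts) below, against 2.76% and 2.01%. In HFD SAT, 2 of 29 lay above (*Col11a2* and *Col24a1*) and 6 below (*Col4a3*, *Col4a4*, *Col4a5*, *Col7a1*, *Col12a1* and *Col14a1*), against 12.9% and 10.9%. These are counting intervals, which leave out the spread between mice.

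The median log2 difference over the fibrillar genes was 0.39 in HFD SAT, 2.72 in chow SAT, 1.35 in VAT as labelled and 0.78 in muscle. For the basement membrane genes it was -0.11, 2.34, 0.63 and 0.78, and for the other genes 0.08, 1.67, 0.58 and 0.75. The medians over all genes tested were 0.06, 0.00, 0.01 and 0.00. Every class thus had a median above that of all genes in the 3 chow pairs. Library totals in place of TMM moved all genes of a pair by 0.23 in chow SAT and 0.16 in muscle on the log2 scale, and DESeq2's size factors moved chow SAT by 0.11.

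**Figure D4:**
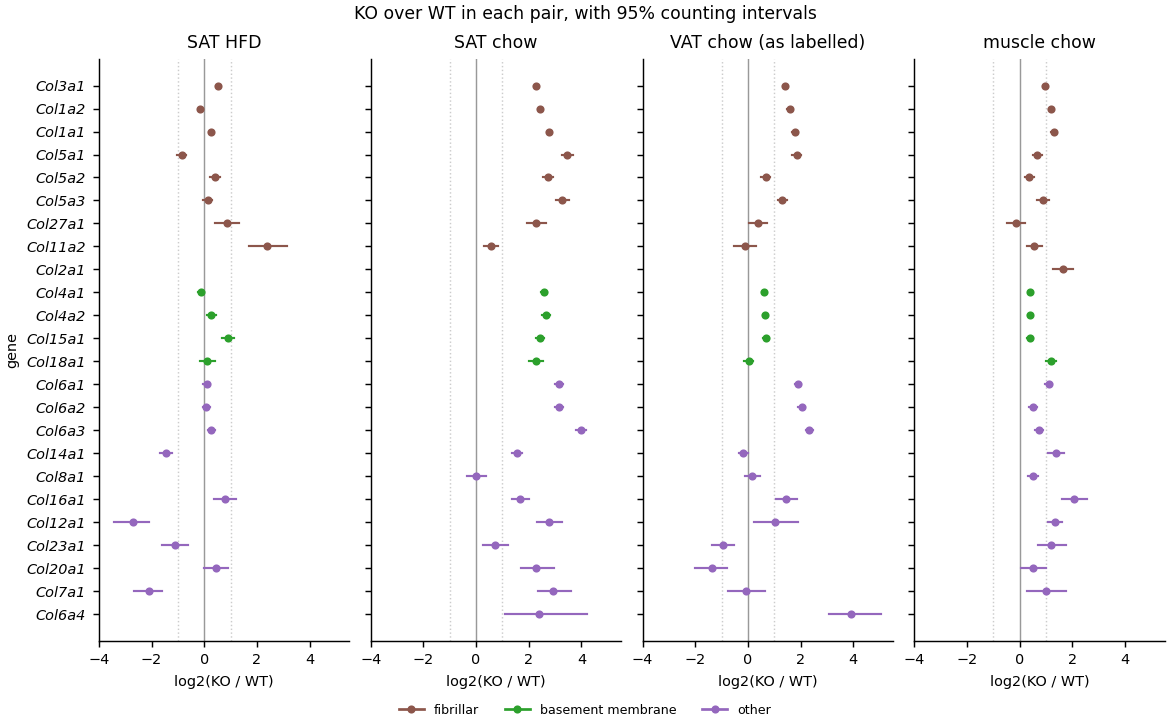
Log2 ratio of KO to WT (x axis) in each pair for the collagen genes that reached 10 CPM, with points for the ratio and bars for the 95% counting interval; dotted lines mark 2-fold, and genes under a mean of 10 counts in the pair are left out. Most points lie right of 0 in the 3 chow pairs, and the points of HFD SAT lie on both sides.

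Across the pairs, 26 collagen genes could be read in all 4. By the direction of the ratio alone, whatever its interval, 11 of them (42.3%) were higher in the KO library each time, against 5.40% of the 13598 genes of the whole table. In a count added after the data were seen, the counting interval of 7 of the 11 also lay above 0 in all 4 pairs: *Col1a1*, *Col3a1*, *Col5a2*, *Col4a2*, *Col15a1*, *Col6a3* and *Col16a1*, 26.9% of the 26 against 1.04% of all genes. For *Col5a3*, *Col6a1* and *Col6a2* it spanned 0 in HFD SAT, and for *Col18a1* in HFD SAT (0.11, -0.16 to 0.39) and in VAT as labelled (0.03, -0.14 to 0.21). None was lower in all 4, against 4.86%. Without the HFD SAT pair, 19 of 31 genes were higher by direction in the 3 others (all genes 11%), among them *Col8a1* with 128 counts in each chow SAT library, and 16 of 31 had intervals above 0 (3.07%). Without the VAT pair, whose *Tert* counts go against the label, these numbers were 13 of 26 (11.9%) and 8 of 26 (4.0%).

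The test with replication asks for a KO difference that the 4 tissue and diet pairs share. In edgeR's quasi-likelihood test, adjusted over 16971 genes by Benjamini-Hochberg, 0 of the 37 collagen genes tested had an adjusted p under 0.05, against 1 gene (0.00589%) of the whole table. At an unadjusted p under 0.05 there were 12 of the 37 collagen genes (32.4%) and 277 of all genes (1.63%), and the 12 were all higher in KO. DESeq2's Wald test called 0 of the 37 and 19 (0.112%) of all genes. The 5 genes with the lowest p were *Col16a1* (log2 fold change 1.499, SE 0.384), *Col3a1* (1.28, SE 0.327), *Col1a1* (1.52, SE 0.403), *Col6a1* (1.55, SE 0.468) and *Col1a2* (1.27, SE 0.409), each with an adjusted p = 0.9996. The value of *Col1a2* was higher in KO in 3 of 4 pairs and that of the 4 others in 4 of 4. The median log2 fold change was 1.27 over the fibrillar genes, 0.86 over the basement membrane genes and 0.52 over the others, against 0.03 over all genes.

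The call for this comparison rests on the filter for low counts. With every gene of at least 1 count in the test, 8 collagen genes passed an adjusted p of 0.05, among 42 genes of 29627 (0.142%): *Col1a1*, *Col1a2*, *Col3a1*, *Col5a1*, *Col5a3*, *Col6a1*, *Col6a2* and *Col6a3*. All 8 were higher in KO, with log2 fold changes of 1.27 to 1.78 and adjusted p = 1.247e-05 for *Col6a3* and adjusted p = 0.039 for *Col5a1*. The cause of this difference between the fits was not tested.

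In the chow pairs the fibroblast and pericyte lists moved in the same direction as the collagen sums. The endothelial list did so in chow SAT and muscle but not in VAT as labelled. The 10 fibroblast and fibro-adipogenic progenitor markers were all higher in KO in chow SAT (801 to 2076 CPM), in VAT as labelled (1480.0 to 2537) and in muscle (885 to 1574). In HFD SAT, 3 of the 10 were higher, and the sum went from 2174 CPM in WT to 1653 in KO while the fibrillar sum went from 1348 to 1548. The pericyte and smooth muscle list was higher in KO for 9 of 10 markers in chow SAT (76.2 to 243 CPM), 9 of 10 in VAT (213 to 774), 8 of 10 in muscle (201 to 392) and 5 of 10 in HFD SAT (165 to 152), with *Cspg4* at 0 in both WT libraries from SAT and *Tagln* at 0 in the WT library of HFD SAT. The endothelial list was higher in KO for only 4 of 10 markers in HFD SAT, although its sum went from 262 to 323 CPM. *Pecam1* alone went from 144.7 to 204.4 CPM there. In chow SAT 8 of 10 were higher (488 to 595 CPM). In VAT as labelled 2 of 10 endothelial markers were higher in KO (1679 to 1413 CPM), and in muscle 9 of 10 were (1696 to 1938). Of these markers, *Dcn* and *Lum* also stand in the list of fibril assembly genes below. The part of these lists in the collagen differences was not tested.

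Other lists were lower or moved in other ways. The leukocyte list was lower in KO for 9 of 10 markers in chow SAT (12210 to 8083 CPM), the pair with the largest collagen steps, and was 6172 and 6030.0 CPM in HFD SAT. Most of the step in chow SAT came from *Cd74* (8429 to 4581 CPM), while *Ptprc*, the 1 marker higher in KO, went from 2146 to 2550. The 6 adipocyte markers summed to 0.619 to 4.77 CPM in SAT and muscle and to 22.1 and 21.8 in VAT, with *Lep* at 0 in all 6 libraries of SAT and muscle. The 6 epithelial markers summed to 253 and 192 CPM in chow SAT and to 6.65 to 47.3 elsewhere. Myofibre and satellite cell markers (8 genes) summed to 34.2 CPM in WT and 19.2 in KO in chow SAT, with 3 of 8 higher in KO. In the other pairs 0 of 8 were higher. There the sums were 43.2 and 7.57 in HFD SAT, 129 and 8.70 in VAT as labelled, and 50.45 and 13.1 in muscle. *Acta1* alone gave 90.3 CPM in the VAT library labelled WT. The 4 mesothelial markers summed to 14.4 and 11.5 CPM in VAT and at most 0.990 elsewhere.

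**Figure D5:**
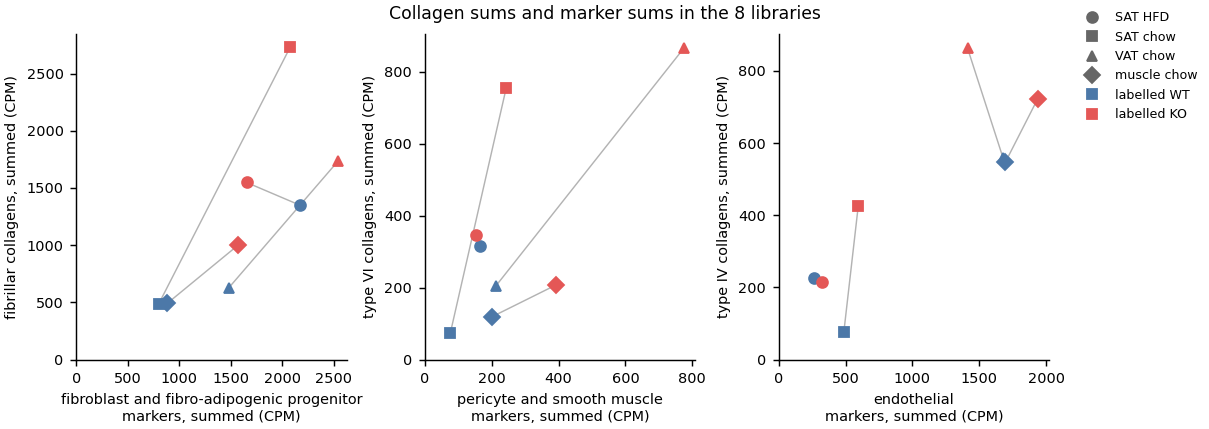
Summed collagen level (y axes, CPM) against the summed level of a marker list (x axes, CPM) in the 8 libraries: fibrillar genes against fibroblast and fibro-adipogenic progenitor markers, type VI against pericyte and smooth muscle markers, and type IV against endothelial markers. Grey lines join the 2 libraries of a pair, and the WT points of VAT and muscle lie on top of each other in the right panel (1679 and 1696 CPM of endothelial markers).

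Tissues were compared with the WT and KO libraries of a tissue as 2 libraries and genotype as the block. In VAT over SAT, both on chow, 0 of 37 collagen genes passed an adjusted p of 0.05, against 5.0% of all genes, and 3 (8.11%) had an unadjusted p under 0.05, against 20.7% of all genes. *Col4a2* came closest, at 2.001 on the log2 scale (SE 0.578, adjusted p = 0.0987), then *Col4a1* with 1.64 (SE 0.601, adjusted p = 0.174) and *Col8a1* with 1.26 (SE 0.483, adjusted p = 0.201). *Col18a1* was at 1.21 (adjusted p = 0.277). Both VAT libraries lay above both SAT libraries for 9 collagen genes (24.3%, against 26.6% of all genes) and below them for 3 (8.11%, against 30.0%). The 9 were *Col4a1*, *Col4a2*, *Col18a1*, *Col8a1*, *Col8a2*, *Col6a5*, *Col6a6*, *Col23a1* and *Col28a1*. Some of them had few counts: *Col8a2* had 15 and 11 in SAT and 10 and 45 in VAT. *Col6a5* had 4 and 4 against 14 and 37, and *Col28a1* had 8 and 17 against 32 and 47. DESeq2's Wald test called *Col4a2* (adjusted p = 0.00287) and *Col4a1* (adjusted p = 0.0215), 5.41% of the 37 against 13.6% of all genes.

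The SAT chow KO library weighed on this comparison. Without it, with the WT library as the only one of its arm and assumed to vary like the other groups, 7 collagen genes passed the adjusted p: *Col4a1*, *Col4a2*, *Col5a2*, *Col5a3*, *Col6a3*, *Col15a1* and *Col18a1*, all higher in VAT, by 1.51 to 3.34 on the log2 scale. These are 18.9% of the 37, and 20.9% of all genes passed in the same fit. Without the SAT chow WT library *Col4a2* alone passed, at 1.30 (adjusted p = 0.0288), against 5.52% of all genes.

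In muscle over chow SAT, which shares the SAT libraries with the comparison above, 0 of 37 passed, against 1.27% of all genes, and 5 (13.5%) had an unadjusted p under 0.05, against 11.5% of all genes. *Col8a1* was at 1.97 (SE 0.492, adjusted p = 0.136), *Col4a2* at 1.88 (SE 0.58, adjusted p = 0.212) and *Col4a1* at 1.52 (SE 0.603, adjusted p = 0.374). *Col3a1* was lower in muscle by -1.10 (SE 0.457, adjusted p = 0.404), and *Col2a1* had 0 and 8 counts in SAT against 85 and 222 in muscle (adjusted p = 0.270). Both muscle libraries lay above both SAT libraries for 6 genes (16.2%, against 20.7% of all genes), which were *Col4a1*, *Col4a2*, *Col8a1*, *Col2a1*, *Col11a1* and *Col28a1*, and below them for 3 (8.11%, against 23.5%). DESeq2's Wald test called *Col8a1* (adjusted p = 0.00447) and *Col4a2* (adjusted p = 0.0137), against 6.26% of all genes. Without the SAT chow KO library 4 genes passed, *Col4a1*, *Col4a2*, *Col5a2* and *Col15a1*, 10.8% of the 37 against 10.5% of all genes.

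In muscle over VAT, 0 of 37 passed, against 2.02% of all genes, and 6 (16.2%) had an unadjusted p under 0.05, against 12.8% of all genes. *Col14a1* was lower in muscle by -2.04 (SE 0.71, adjusted p = 0.249), *Col6a6* by -3.47 (SE 1.27, adjusted p = 0.276) and *Col6a4* by -4.74 (SE 1.64, adjusted p = 0.265). *Col2a1* (adjusted p = 0.133) and *Col11a1* (adjusted p = 0.270) were at 0 in both VAT libraries and had 85 and 222 counts and 47 and 44 counts in muscle. Both muscle libraries lay above both of VAT for 5 genes (13.5%, against 33.4% of all genes) and below them for 10 (27.0%, against 28.6%), type VI chains *Col6a2*, *Col6a4*, *Col6a5* and *Col6a6* among the 10. DESeq2's Wald test called *Col6a6* (adjusted p = 0.0292) and *Col6a4* (adjusted p = 0.0295), against 7.39% of all genes. *Col3a1* and *Col5a3* passed, lower in muscle by -1.15 and -1.43, without the SAT chow pair (7.49% of all genes passed) or without its WT library (7.43%), and *Col2a1* passed without the SAT HFD pair (2.78%).

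For HFD over chow in SAT, 0 of 37 collagen genes and 0% of all genes passed, with 5 (13.5%) and 1577 (9.29%) at an unadjusted p under 0.05. *Col8a1* had the lowest p (adjusted p = 0.103), and its fitted change is set by the 2 libraries with 0 counts. Against a floor of 3 counts in each HFD library, its level was at least 18.3-fold lower on HFD in WT and at least 34.3-fold lower in KO. DESeq2's Wald test called *Col8a1* alone of the 37 (adjusted p = 5.564e-05) and 260 (1.53%) of all genes. The next by p were *Col4a6*, *Col6a4*, *Col28a1* and *Col8a2*, with adjusted p-values of 0.496 to 0.523. Both HFD libraries lay above both chow libraries for 3 genes (8.11%, against 7.0% of all genes) and below them for 7 (18.9%, against 26.6%). In WT, all 6 genes of types I, III and V were higher on HFD, such as *Col1a1* (329.5 against 99.6 CPM), while in KO all 6 were lower (393 against 680.1), a difference that was not tested. These types were picked after the values were seen, and the share of all genes with such a reversal was not counted. Genes of other types reversed as well, such as *Col4a1* (log2 difference 1.74 in WT and -0.93 in KO) and *Col6a1* (2.01 and -1.05). The fibrillar *Col11a2* was lower on HFD in both (-2.24 and -0.45). The median log2 fold change was 0.19 over the fibrillar genes and -0.32 over all genes.

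The chains of 1 protein kept closer ratios than their levels did. Counts per kilobase of the deposited gene length were used here, so that genes can be compared. *Col1a1* stood at 1.29 to 1.97 times *Col1a2* in the 8 libraries, a range of 1.52-fold, while the level of *Col1a1* itself ranged from 99.6 to 680.1 CPM. *Col6a1* stood at 1.71 to 2.55 times *Col6a2*, and *Col6a3* at 0.192 to 0.393 times *Col6a1*. *Col4a1* stood at 1.21 to 1.23 times *Col4a2* in VAT and muscle and at 1.52 to 2.02 times in SAT, without overlap between the 2 sets of libraries. The widest ranges were those of *Col5a1* to *Col5a2* (0.765 to 2.35, 3.07-fold) and of *Col3a1* to *Col1a1* (0.701 to 1.76, 2.51-fold). *Col3a1* and *Col1a1* code for different proteins, and their ratio ranged less than that of the type V chains, so closer ratios were not particular to chains of 1 protein. In each pair *Col1a1* to *Col1a2* was higher in the KO library, 1.49 and 1.97 in HFD SAT, 1.29 and 1.66 in chow SAT, 1.60 and 1.84 in VAT as labelled, and 1.70 and 1.81 in muscle. The other chain ratios read here went in both directions between pairs. These ratios carry no counting interval, and the direction was not tested.

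The genes that fold, modify, secrete, assemble, cross-link, bind and degrade collagen were read from 6 lists of 72 genes, of which 70 were tested. Across the 4 pairs 0 of the 70 had an adjusted p under 0.05 for KO over WT, while 11 were higher and 1 lower at an unadjusted p under 0.05, against 1.63% of all genes in either direction. The medians were 0.83 for propeptide removal and fibril assembly (15 genes, among them the proteinase *Bmp1* and the fibril-binding *Dcn* and *Lum*), 0.58 for cross-linking (7 genes, among them *Lox*), 0.35 for folding and modification (19 genes, among them *Serpinh1*), and -0.01 for receptors and uptake. Within chow SAT, 31 of 70 lay above 2-fold in KO and 4 below, against 19.1% and 11.5% of all genes. In VAT as labelled 5 of 69 lay above and 0 below (all genes 2.40% and 2.09%), and in muscle 5 of 68 and 1 (2.76% and 2.01%). In HFD SAT 3 of 65 lay above and 6 below, where all genes gave 12.9% and 10.9%.

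Between tissues, in edgeR's test, the enzymes and receptors gave calls where the chains gave none. In VAT over chow SAT, 8 of the 70 genes were higher and 0 lower at an adjusted p under 0.05, against 5.0% of all genes in either direction. The largest were *Mrc1*, a receptor that takes up collagen (log2 fold change 4.70, adjusted p = 0.00524), the gelatinase *Mmp9* (3.93, adjusted p = 0.00756), the prolyl hydroxylase *P3h2* (3.62, adjusted p = 0.0122), fibronectin *Fn1* (2.74, adjusted p = 0.023) and the lysyl hydroxylase *Plod1* (2.25, adjusted p = 0.0107). *Mrc1* had 86.2 and 77.3 CPM in chow SAT and 2285 and 1970.0 in VAT. In muscle over chow SAT, the collagenase *Mmp8* (7.11, adjusted p = 0.0183) and *Mmp9* (4.81, adjusted p = 0.00958) were higher and periostin *Postn* was lower (-3.05, adjusted p = 0.0233). There 1.27% of all genes passed in either direction. *Mmp8* and *Mmp9* are known from neutrophils, and *Mrc1* from macrophages. The leukocyte list summed to 12210 and 8083 CPM in chow SAT, 15400 and 16920 in VAT and 11170 and 9670.0 in muscle. *Cd74* alone gave 2151 to 12610 CPM of these sums. The neutrophil gene *S100a8* was at 55.8 and 11.6 CPM in chow SAT, 62.8 and 49.3 in VAT and 3773 and 5407 in muscle. The macrophage genes *Csf1r* and *Adgre1* were at 242 and 113 and at 77.5 and 39.2 CPM in chow SAT, and at 2047 and 1825 and at 597 and 626 in VAT. The part of these cells in the calls was not tested.

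In muscle over VAT, *Mmp8* was higher (5.97, adjusted p = 0.0174) and 5 genes were lower: *Mrc1* (-6.35, adjusted p = 0.00487), *P3h2* (-3.16, adjusted p = 0.0255), the prolidase *Pepd* (-2.80, adjusted p = 0.0173), the procollagen proteinase *Adamts14* (-2.56, adjusted p = 0.0385) and the proteinase inhibitor *Timp2* (-2.05, adjusted p = 0.0279). In that comparison 2.02% of all genes passed in either direction. For HFD over chow in SAT 0 of the 70 passed, with 1 higher and 6 lower at an unadjusted p under 0.05, against 9.29% of all genes in either direction. The 5 genes of highest mean level were then *Fn1* (0.30, SE 0.462), *Mrc1* (-1.204, SE 0.448), the integrin *Itgb1* (-0.51, SE 0.321), the prolyl hydroxylase subunit *P4hb* (-0.45, SE 0.321) and *Mmp9* (-1.68, SE 0.452), with adjusted p-values of 0.424 to 0.871.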

How the data were processed

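RNA of mG+ cells was sequenced in 8 libraries by Novogene. The labels give an RNeasy kit for RNA and a SMARTER kit for libraries, while the study's methods name Trizol. The authors deposited 1 table of raw read counts per gene, with gene length and coordinates, and the counts carry no normalization. The submitters' processing notes name HISAT2 2.0.5 and GRCm38 (mm10). The counting program, annotation release and use of strand are not given in the sources used here. Samples were grouped by the labels, and 0 columns were left out.

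Counts were scaled by TMM and given as CPM. Genes that averaged 10 counts or more over the 8 libraries were tested by edgeR's quasi-likelihood test (edgeR 4.0.16, limma 3.58.1, R 4.3.3), with pair and genotype as terms and Benjamini-Hochberg adjustment over all genes at 0.05. The pair terms take out differences in level between tissues and diets. The p-values therefore rest on how far the KO to WT difference varies between pairs, which includes the spread between mice. Within a pair, log2 ratios used a prior count of 0.5 and an exact (Clopper-Pearson) 95% interval that covers counting error only, with a call where it lay wholly beyond 2-fold, for genes that averaged 10 counts or more over the pair. Folds against 0 counts used a floor of 3 counts in that library. Alternatives were DESeq2's size factors, library totals, other filters and prior counts, DESeq2 1.42.0, no block and leaving out pairs or libraries. Scripts ran in Python 3.11.15 (numpy 2.4.6, scipy 1.17.1, pandas 2.3.3, matplotlib 3.10.9), and the test was tested on simulated data.

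The collagen genes that reached 10 CPM in a library were named with all values, and in the test of KO over WT those with the 5 lowest p. Genes named in the tissue and diet tests were chosen after their values were seen, except pathway genes, which were those called, up to 5 by size in each direction, or else the 5 of highest mean CPM. The collagen genes and all gene lists were chosen with earlier results of these data known. The result of 1 further marker list is not reported here.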

Additional observations from a re-analysis of the deposited data

Results flagged for a closer look

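For 5 collagen genes the KO to WT difference lay beyond 2-fold in opposite directions in different pairs, with 1 library per genotype in each pair, and none of these differences between pairs was tested. They are 13.9% of the 36 collagen genes that could be read in at least 2 pairs, and 4.90% of all such genes did the same. *Col12a1* was lower in KO in HFD SAT (log2 difference -2.70) and higher in chow SAT (2.75) and muscle (1.35). For *Col14a1* the values were -1.45 in HFD SAT, 1.56 in chow SAT and 1.38 in muscle. *Col7a1* was at -2.10 in HFD SAT and 2.92 in chow SAT. *Col4a3* had 0 counts in the KO library of HFD SAT, a signed fold bound of -16.9 (at least 16.9-fold lower in KO), against log2 differences of 4.15 in chow SAT, from 1 count in WT, and 1.90 in VAT as labelled. *Col4a4* had 0 counts there as well, a signed fold bound of -22.5, against log2 differences of 2.02 in chow SAT and 2.85 in muscle. Of all genes with 20 to 50 counts in the WT library of HFD SAT, 26.3% had 0 in its KO library.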

How the results depend on the processing

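The single-library omissions and the omissions from the count of genes higher in all pairs were chosen after seeing the data, and an arm left with 1 library was assumed to vary like the others. Direction was checked for 25 combinations of gene and comparison, which leave out some of the genes named in a test. All 392 values of these combinations kept their direction, and 27 passed the threshold where the reported test did not. Outside them, *Col5a2* in muscle over SAT changed direction. Its log2 change was -0.042 in the reported test and 1.293 without SAT chow KO. The cause of the changes below was not tested. With no filter, 8 collagen genes were called for KO over WT, 2 for VAT over SAT, 3 for muscle over SAT, 7 for muscle over VAT and 1 for HFD over chow, where all genes gave 0.142%, 7.09%, 3.28%, 3.91% and 1.07%. With DESeq2's Wald test the numbers were 0, 2, 2, 2 and 1. Leaving out a pair or library gave 0 to 0, 0 to 7, 0 to 4, 0 to 2 and 0 to 1 in that order. The median log2 change of the collagen genes then ran from 0.43 to 1.18 for KO over WT, from -0.006 (without SAT chow WT) to 1.51 (without SAT chow KO) for VAT over SAT, from -0.71 to 0.75 for muscle over SAT (the same libraries), from -0.77 to -0.15 for muscle over VAT and from -0.56 to 1.09 for HFD over chow (again without chow SAT WT and KO). Genes higher in KO in every pair numbered 11 to 19, with 19 without HFD SAT, and 7 where the counting interval had to lie above 0 each time, a rule also added after seeing the data.

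Within pairs, a minimum mean of 50 counts left 1 gene higher and 3 lower in HFD SAT, 0 lower in muscle, and a basement membrane median of 0.19 in HFD SAT, where type IV alone had a median of -6.30 (set by 3 genes at 0 in KO) and a summed log2 ratio of -0.071. Library totals gave a fibrillar median of 2.94 in chow SAT. With library totals the summed log2 ratios were 0.27 (HFD SAT), 2.71 (chow SAT) and 1.19 (muscle) for fibrillar genes, 2.66 (chow SAT) and 0.60 (muscle) for basement membrane genes and -0.037, 3.045 and 1.003 for the others. DESeq2's size factors gave 2.59, 2.54 and 2.93 in chow SAT. Without length correction the median chain ratios were 0.887 for *Col1a1* to *Col1a2*, 1.09 for *Col6a1* to *Col6a2* and 0.845 for *Col6a3* to *Col6a1*.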
